A study of Mus musculus with 6 samples.

Results

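The Myc, Max and Mxd network is a set of 10 genes, listed by name with no cut on their values, and taken up with earlier results of these data known. It consists of the 3 Myc genes (Myc, Mycn, Mycl), Max, the 4 Mxd genes (Mxd1, Mxi1, Mxd3, Mxd4), Mnt and Mga. All 10 were found among the 36083 genes of the deposited table by matching Ensembl identifiers to symbols. The table held 6 RNA-seq libraries of bcCML, a mouse model of blast crisis chronic myeloid leukemia, 3 labelled WT and 3 labelled Sdc1-/-. For both groups, KLS cells (Kit+, lineage-negative, Sca-1+ progenitors) of WT or Sdc1-/- donors with a B6 background were infected with retroviruses carrying BCR-ABL and NUP98-HOXA9, and the double-positive cells were transplanted. The labels name NSG recipients, mice without mature T, B and NK cells of their own, while the study's general methods describe irradiated CD45.1 recipients, and the labels give no age or sex. Spleens of both cohorts were taken at the same time and sorted for Lin- cells, a gate that leaves out cells with lineage antigens on their surface, among them CD3, CD4, CD8, B220, Gr1, CD11b and Ter119. Both fusion genes are thus shared by all 6 libraries, and by their labels the groups differ in the Sdc1 genotype of the donor. The Sdc1-/- allele disrupts the signal peptide of syndecan-1, a heparan sulfate proteoglycan of the cell surface. The labels do not state whether the libraries of a group came from separate mice, and the study describes its RNA-seq of Lin- WT bcCML as technical replicates. In what follows n counts libraries, and the errors and p-values may cover technical spread only, not the spread between mice.

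Proteins of this network bind DNA as dimers through a basic helix-loop-helix leucine zipper. Max is the common partner: Myc with Max activates genes of growth and division at E-boxes, while Mxd proteins and Mnt with Max occupy the same sites and recruit Sin3 and histone deacetylases. In blood cells Myc falls and Mxd1 rises as granulocyte precursors leave the cell cycle, and Myc and Mycn together sustain hematopoietic stem cells.

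The values were TPM per gene, a level per transcript length, rescaled between libraries by the authors. Read depth is unknown and no counting interval can be given. Library sums ran from 944973 to 1058263, with all 3 sums of the libraries labelled Sdc1-/- below those labelled WT. Of 12155 genes with a mean of at least 1, 60.7% were called by limma on log2(value + 1) at a Benjamini-Hochberg adjusted p under 0.05, 29.3% higher with the Sdc1-/- label and 31.3% lower, and in 66.7% the groups did not overlap. When each library was scaled to sum to 1000000, the median log2 fold change of all tested genes moved from -0.0097 to 0.12 and the share of calls that were higher from 48.3% to 69.0%. The calls were then 63.1% of genes, 43.5% higher and 19.6% lower. The mRNA of the targeted gene, Sdc1, was higher with the Sdc1-/- label. It stood at 1.75, 1.21 and 1.51 in libraries with the WT label and at 3.85, 3.80 and 4.12 with the Sdc1-/- label. The study describes the allele as keeping mature protein from the cell surface. It reports the deletion by PCR of genomic DNA and by immunofluorescence of bcCML cells, and does not state whether the mRNA of the allele is lost. The Sdc1 values here thus do not settle the genotype of these libraries, and groups are named by label throughout. An exchange of the labels was not tested, and it would turn every direction given here. The Y-linked genes Eif2s3y, Ddx3y, Uty and Kdm5d summed to 0.276 to 0.308 in libraries with the WT label and to 68.1 to 78.4 in those with the Sdc1-/- label, so sex and group cannot be told apart in any result here.

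Mycn rose 2.22-fold, Myc rose 1.13-fold and the 4 Mxd genes fell in the libraries labelled Sdc1-/-, while Max was not called. Of the 10 members, 9 reached the minimum mean and 7 of these 9 were called, against 60.7% of all tested genes. Higher were 3 members (Myc, Mycn and Mga) and lower were 4, the whole Mxd family, against backgrounds of 29.3% and 31.3%. The median log2 fold change of the 9 was -0.032, beside -0.0097 for all tested genes. Every library at a sum of 1000000 left 4 members called higher, Mnt included, and 4 lower, against 43.5% and 19.6% of all tested genes. In the same 7 members the groups did not overlap, where 66.7% of tested genes did not. For a single gene, the exact permutation test of 3 against 3 libraries cannot go below p = 0.1 (two-sided), so the calls rest on the spread that limma pools across genes. These are bulk samples, in which fewer cells of a type and less RNA per cell cannot be told apart.

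**Figure D1:**
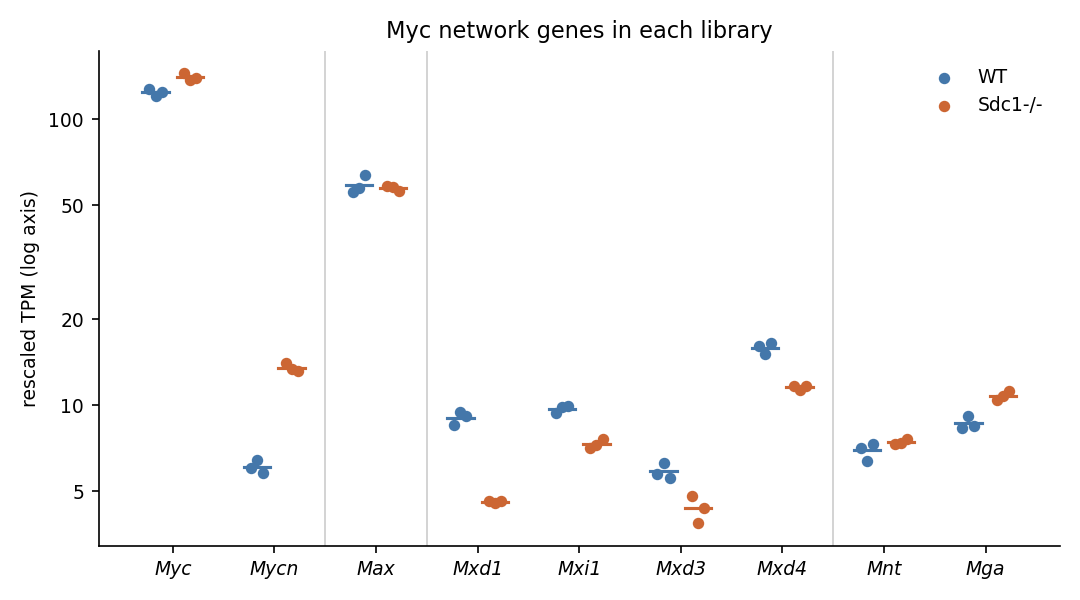
Level of each member in each library, in rescaled TPM on a log axis. Points are single libraries and lines are group means (n = 3). Mycl, at or below 0.025 in every library, is not drawn. Mycn and Mga sit higher and the 4 Mxd genes lower in the libraries labelled Sdc1-/-, without overlap, while Max and Mnt overlap.

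Myc, the founding member and a driver of ribosome production and cell growth, had the highest level of the network. The gene (ENSMUSG00000022346) lies on chromosome 15 at 61985391 to 61990374, plus strand, in GENCODE M21 on GRCm38. Its values were 128, 121 and 124 in libraries with the WT label and 145, 138 and 139.6 in those with the Sdc1-/- label. Every library labelled Sdc1-/- lay above every library labelled WT, by a small margin. The means were 124 ± 3.41 and 141 ± 3.76 (SD, n = 3 per group), a ratio of 1.13. On the log2(value + 1) scale, on which changes of weakly expressed genes come out too small, the fold change was 0.18 (SE 0.035, limma adjusted p = 0.0037). This rise is not unusual in size in these data, as 60.0% of tested genes had a larger difference in one direction or the other.

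Mycn, the paralog that can stand in for Myc in stem cells and that drives neuroblastoma when amplified, changed most within the network. The gene (ENSMUSG00000037169) lies on chromosome 12 at 12936093 to 12941914, minus strand. It stood at 6.05, 6.45 and 5.81 in libraries with the WT label and at 14.0, 13.4 and 13.2 in those with the Sdc1-/- label. The groups were far apart relative to their spread, at 6.10 ± 0.326 and 13.5 ± 0.435 (SD, n = 3 per group), a ratio of 2.22. The log2 fold change was 1.03 (95% confidence interval 0.91 to 1.16, limma adjusted p = 7.7e-06). Of the tested genes, 4.57% had a larger difference in either direction and 210 rose by more. Mycn went from 4.69 ± 0.333% to 8.78 ± 0.113% of the summed value of the 3 Myc genes (SD, n = 3 per group). Mycl, the third Myc gene, was listed at 0.017, 0 and 0 in libraries with the WT label and at 0.025, 0.0097 and 0 in those with the Sdc1-/- label. It was far below the minimum mean and was not tested.

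Promoters, from 250 bases before to 50 after the transcription start, were read from RefSeq on GRCm38.p6 for the members, of which all but Myc matched, with 11 promoters in all. They were searched on both strands for the E-box CACGTG, for CACGCG, and for the E2F letters TTTGGCGC, TTTCGCGC and TTTCCCGC. The Mycn promoter is shown because Mycn rose most and its promoter was the only one among the members with E2F letters. It holds TTTGGCGC starting 183 and 168 bases before the start and, overlapping the first of these, GCGCGAAA, the reverse complement of TTTCGCGC, starting 179 bases before. Of all 32851 promoters, 1.84% hold one of the 3 E2F strings. The stretch from 250 to 101 bases before the start (chr12:12941937-12942086, minus strand, matches in capitals) reads as follows.
Mycn: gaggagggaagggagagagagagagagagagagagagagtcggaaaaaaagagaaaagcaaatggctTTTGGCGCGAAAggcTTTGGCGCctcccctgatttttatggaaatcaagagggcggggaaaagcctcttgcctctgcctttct

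Max, the common partner of Myc and of the Mxd proteins, was second in level. Its values were 55.5, 57.4 and 63.6 in libraries with the WT label and 58.6, 57.8 and 56.0 in those with the Sdc1-/- label, so the groups overlapped. The log2 fold change was -0.032 (95% confidence interval -0.16 to 0.095, limma adjusted p = 0.63), and its sign turned with the scaling, to 0.11 with every library at a sum of 1000000 and 0.023 with quantile normalization. Summed over the Myc genes and the antagonists, partner values were 3.18 ± 0.232 per unit of Max in libraries with the WT label and 3.49 ± 0.0899 in those with the Sdc1-/- label (SD, n = 3 per group). The libraries ran from 2.94 to 3.40 and from 3.39 to 3.57, so the groups overlapped.

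All 4 Mxd genes were lower in the libraries labelled Sdc1-/-, under every scaling and every other setting tried. Mxd1, which is induced when granulocytes mature and which restrains their division, fell most. The gene (ENSMUSG00000001156) lies on chromosome 6 at 86647042 to 86669161, minus strand. It stood at 8.50, 9.46 and 9.18 in libraries with the WT label and at 4.61, 4.55 and 4.62 in those with the Sdc1-/- label. The libraries labelled Sdc1-/- were nearly equal to each other, and all lay below those labelled WT. The means were 9.04 ± 0.495 and 4.60 ± 0.0364 (SD, n = 3 per group), 1.97-fold lower with the Sdc1-/- label. This is a log2 fold change of -0.84 (95% confidence interval -0.97 to -0.72, limma adjusted p = 1.9e-05), and 537 tested genes fell by more.

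Mxi1, also called Mxd2, was at 9.42, 9.83 and 9.89 against 7.09, 7.24 and 7.59 in libraries with the WT label and Sdc1-/-. Mxd4, which is found mostly in differentiating cells, was the most abundant Mxd gene in both groups, at 16.1, 15.1 and 16.5 against 11.7, 11.3 and 11.7. Mxd3, unlike the others known for expression in dividing cells in S phase, was at 5.73, 6.30 and 5.56 against 4.81, 3.87 and 4.38. In none of these did the groups overlap. The means fell by 24.8% for Mxi1, 25.7% for Mxd3 and 27.2% for Mxd4, beside 49.2% for Mxd1. The log2 fold changes were -0.37 for Mxi1 (limma adjusted p = 5.0e-04), -0.36 for Mxd3 (adjusted p = 0.0069) and -0.43 for Mxd4 (adjusted p = 2.3e-04). Between 25.6% (Mxd4) and 32.5% (Mxd3) of all tested genes had larger differences, so these 3 falls are ordinary in size in these data. The Mxd1 share of the summed Mxd value went from 22.3 ± 0.932% to 16.5 ± 0.307% (SD, n = 3 per group).

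Mnt, the most widely expressed antagonist, was at 7.09, 6.40 and 7.34 in libraries with the WT label and at 7.34, 7.38 and 7.64 in those with the Sdc1-/- label. The groups overlapped, and the log2 fold change was 0.091 (95% confidence interval -0.048 to 0.23, limma adjusted p = 0.22). With every library at a sum of 1000000 it was 0.22 with an adjusted p of 0.014, so the call of Mnt depends on the scaling. Mga, a very large protein with a T-box beside its Max-binding domain and the scaffold of the polycomb complex PRC1.6, was at 8.35, 9.15 and 8.47 against 10.5, 10.7 and 11.2. The groups did not overlap, and the log2 fold change was 0.29 (SE 0.052, limma adjusted p = 0.0024). The Mga transcripts have a median length of 13304 bases, longer than those of 98.5% of tested genes, with a GC content of 42.2%. Of the 600 tested genes in the top 5% by length, 52.3% were called higher and 15.2% lower, against 29.3% and 31.3% of all. After a trend with transcript length and GC content was removed from every library (a fit added once the data had been seen), 32.5% of all tested genes were higher and 30.5% lower, 63.0% in all. In that fit the log2 fold change of Mga was -0.040 (adjusted p = 0.40), while those of Mycn, Mxd1 and Myc were 1.03, -0.84 and 0.21 and stayed called.

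**Figure D2:**
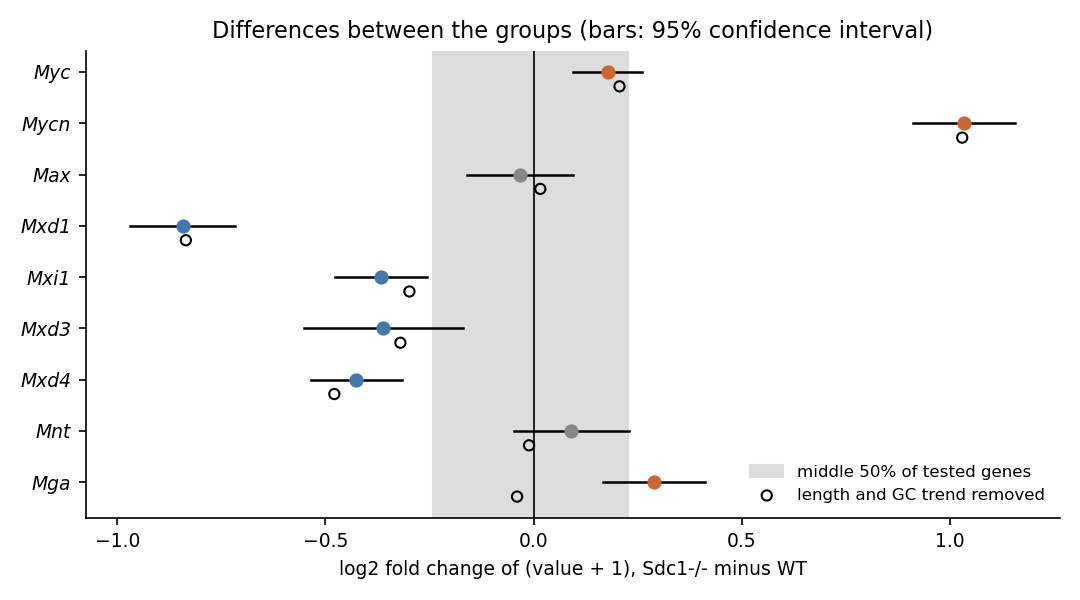
Log2 fold change of (value + 1) of the 9 tested members, libraries labelled Sdc1-/- minus those labelled WT, with 95% confidence intervals from limma (n = 3 in each group). Orange marks called higher, blue called lower and grey not called, and the shaded band is the interquartile range of all tested genes. Mycn (1.03) and Mxd1 (-0.84) lie far outside the band. Open circles show the values after the length and GC trend is removed, where Mga is at -0.040 and Mnt at -0.011. Max also turns its sign there and under other scalings.

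The Mxd1 promoter had none of the searched strings, nor had those of Mxd3 and Mxi1, and at 76.7% it had the highest share of G and C among the 11. The 150 bases before its start (chr6:86669160-86669309, minus strand) are shown because Mxd1 fell most.
Mxd1: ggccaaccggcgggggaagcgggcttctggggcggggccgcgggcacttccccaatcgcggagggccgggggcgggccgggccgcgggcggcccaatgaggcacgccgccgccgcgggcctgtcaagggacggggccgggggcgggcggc
The E-box CACGTG, the preferred site of Myc-Max and Mxd-Max dimers, was found in the promoters of Max, Mnt and Mxd4, 3 of 11 member promoters against 7.15% of all promoters. These windows are shown because they carry the letters the network itself binds, with the E-box in capitals. Max and Mnt were not called and Mxd4 fell. The windows are chr12:76962224-76962273 (minus strand) for Max, chr11:74830779-74830828 (plus strand) for Mnt and chr5:34187902-34187951 (minus strand) for Mxd4.
Max: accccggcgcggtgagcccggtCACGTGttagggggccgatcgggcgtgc
Mnt: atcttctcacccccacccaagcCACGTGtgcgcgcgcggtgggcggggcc
Mxd4: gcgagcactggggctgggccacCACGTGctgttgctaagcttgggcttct
They start 3, 123 and 219 bases before the transcription start. CACGCG, a weaker variant, was found in the promoters of Mga and Mycl, against 9.27% of all promoters.

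The order of levels within the network changed between the groups. In the libraries labelled WT, Myc and Max led, followed by Mxd4, Mxi1, Mxd1, Mga, Mnt, Mycn, Mxd3 and Mycl. Neighbours whose ranges overlapped there were Mxi1 and Mxd1, Mxd1 and Mga, Mnt and Mycn, and Mycn and Mxd3. In the libraries labelled Sdc1-/-, Mycn moved from rank 8 to rank 3, behind Myc and Max, and Mxd1 from rank 5 to rank 8. Only Mnt with Mxi1, and Mxd1 with Mxd3, overlapped among neighbours in that group.

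Ratios within a library do not depend on how libraries are scaled against each other. The sum of Myc, Mycn and Mycl, divided by the sum of the 6 antagonists (Mxd1, Mxi1, Mxd3, Mxd4, Mnt and Mga), was 2.32 ± 0.0876 in libraries with the WT label and 3.35 ± 0.105 in those with the Sdc1-/- label (SD, n = 3 per group). The libraries ran from 2.26 to 2.42 and from 3.24 to 3.45, without overlap. On the log2 scale the difference was 0.53, and without Mga in the sum it was 0.67. Both terms moved, the Myc-type sum from 130.3 ± 3.23 to 154 ± 4.17 and the antagonist sum from 56.1 ± 0.908 to 46.1 ± 1.01. The ratio of Myc to Mxd1 went from 13.8 ± 1.15 to 30.6 ± 0.691, and that of Mycn to Mxd1 from 0.675 ± 0.0400 to 2.95 ± 0.0919 (SD, n = 3 per group). These are ratios of mRNA values and say nothing of protein or dimers.

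**Figure D3:**
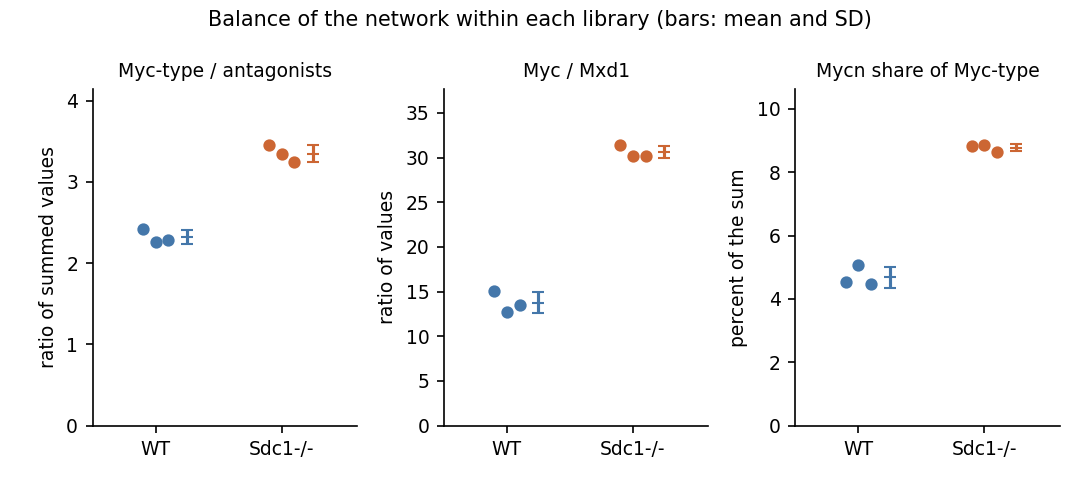
Ratios within each library for the libraries labelled WT and Sdc1-/-. The left panel shows the summed Myc genes over the summed antagonists, the middle panel Myc over Mxd1, and the right panel the share of Mycn in the summed Myc genes in percent. Points are libraries and bars are the mean and SD (n = 3). In each panel the libraries labelled Sdc1-/- lie above all those labelled WT, at means of 3.35 against 2.32 in the left panel.

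Marker counts come from the fit of the deposited values, in which 31.3% of all tested genes were lower and 29.3% higher. At equal library sums these shares were 19.6% and 43.5%, a background for counts of that other fit only. Markers of maturing granulocytes moved in the same direction as Mxd1. All 16 listed were tested and lower in the libraries labelled Sdc1-/-, with a median log2 fold change of -1.58, and their summed value ran from 14725 to 15809 in libraries with the WT label and from 5476 to 5656 in those with the Sdc1-/- label. None was at 0, and S100a8, the highest, went from 5279 ± 394 to 1859 ± 85.4 (SD, n = 3 per group). Their part in the fall of the Mxd genes was not tested. Mast cell and basophil markers were also lower, 5 of 5 tested (sums 408 to 414 against 145 to 148), as were 7 of 8 erythroid markers (sums 10432 to 11106 against 5804 to 6193) and 7 of 9 tested monocyte and macrophage markers (sums 550.5 to 572 against 251 to 259). Of 9 stem and progenitor markers, 6 were higher and 2 lower, and the summed value ran from 426 to 448 and from 485 to 491. The 2 lower ones, named after their values were seen, were Cd34 (means 47.4 and 39.9) and Flt3 (13.2 and 7.71). Gata2, the most abundant of the 9, was not called (limma adjusted p = 0.44). Hoxa9, a homeobox gene of stem cells, went from 84.8 ± 4.10 to 96.5 ± 4.87. Its call was lost without WT replicate 3, Sdc1-/- replicate 1 or Sdc1-/- replicate 2. All libraries carry NUP98-HOXA9, and whether reads of the fusion add to the Hoxa9 value was not tested. Among T and NK cell markers, Cd3e and Cd8a stayed at or below 0.041 in every library, Cd4 reached 0.12 and Cd3d ran from 0.22 to 0.87. Of the B cell markers only Cd79b was tested, at means of 2.29 and 2.12 (limma adjusted p = 0.55). Of 8 T and NK cell markers, 2 were tested and Nkg7, which other blood cells also express, was lower, while Trac, at means of 1.09 and 1.65, was not called (limma adjusted p = 0.068) but was called higher under other settings.

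By the root mean square difference of centred log2(value + 1) profiles over the 6 libraries, the genes most like Myc among 8957 candidates with a mean of at least 5 were Psmb10 (0.013), Hoxa10 (0.014) and Ccdc86 (0.015). Psmb10, an immunoproteasome subunit, went from a mean of 238 to 267. Hoxa10, a homeobox gene of the cluster active in stem cells and leukemia, went from 7.96 to 9.21. The profiles most like that of Mxd1 were those of BC100530 (0.036), Tusc3 (0.036) and Havcr2 (0.038). BC100530, a stefin-like gene with close paralogs in a cluster, so that its value is uncertain, went from 436 to 247, and Havcr2, the surface receptor Tim-3, from 33.6 to 18.2.

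The Mlx arm connects to the same network, since Mlx, a Max-like protein, pairs with Mnt, Mxd1 and Mxd4 and with the glucose sensors Mlxip and Mlxipl. Of its 5 listed genes 4 were tested, 3 lower and 1 higher in the libraries labelled Sdc1-/-, against 31.3% and 29.3% of all tested genes. Txnip, a target of Mlxip that limits glucose uptake, fell from 183 ± 9.48 to 103 ± 1.92 (SD, n = 3 per group), a log2 fold change of -0.82 (limma adjusted p = 8.9e-06). Mlx fell from 52.0 ± 3.67 to 42.0 ± 1.44 and Mlxip rose from 8.60 ± 0.186 to 9.83 ± 0.182, a call lost once the length and GC trend was removed.

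Cofactor counts come from the fit of the deposited values and are read against 29.3% higher and 31.3% lower among all tested genes. The shares at equal library sums, 43.5% and 19.6%, belong to another fit, in which the counts differ too. Among coactivators that Myc recruits, 12 of 19 were higher and 1 was lower. Their median log2 fold change was 0.26, beside -0.0097 for all tested genes. Of the 3 most abundant, Ruvbl2 went from 147 ± 5.04 to 159.9 ± 2.53, a call lost in 4 of the 6 runs that left out a library (adjusted p up to 0.0701), and neither Actl6a nor Ruvbl1 was called (adjusted p = 0.086 and 0.49 from limma). At equal library sums both were called higher (0.23 and 0.17 on the log2 scale). Trrap, the scaffold that brings histone acetyltransferases to Myc and named after its values were seen, had the largest difference of the list, with a log2 fold change of 1.00, and of 0.67 with the length and GC trend removed. Corepressors of the Sin3 and Hdac type, which Mxd and Mnt recruit, were higher in 8 of 15 and lower in 2 (median 0.18). The 2 lower ones were Sin3b, which fell from 170.4 ± 4.26 to 113 ± 3.99 (log2 fold change -0.59), and Rbbp7, a histone-binding subunit that fell from 310.2 ± 12.4 to 258 ± 6.32, both among the 3 most abundant of the list. Rbbp4 was at 197 ± 13.2 and 184 ± 14.1 (SD, n = 3 per group, limma adjusted p = 0.25).

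PRC1.6, the complex built on Mga, had 6 of 13 genes higher and 3 lower (median 0.14), against 29.3% and 31.3% of all tested genes. In the fit at equal library sums, those shares of all tested genes were 43.5% and 19.6%. With a library left out, the higher genes numbered 4 to 5, and 4 without WT replicate 3 or Sdc1-/- replicate 3. Its most abundant genes were Cbx3, a heterochromatin protein, at 249.7 ± 24.8 and 280.2 ± 46.4, and Tfdp1, the dimer partner of E2F proteins, at 241 ± 11.9 and 227 ± 10.1, and neither was called. Hdac1 rose from 105 ± 0.557 to 115 ± 0.918. Germ cell genes that PRC1.6 keeps silent in other tissues were mostly off: of 18 listed, 5 were tested and 6 were at 0 in every library. Their promoters often carried the network's site, with CACGTG in 14 of 23 promoters of the 18 genes, 60.9% against 7.15% of all. Since the list was drawn up as known PRC1.6 targets, this share describes the list and is not a result of these libraries. Dazl, a germ cell RNA-binding protein, was the most abundant, at 20.5 ± 0.923 in the libraries labelled WT, and fell to 8.30 ± 0.312 in those with the Sdc1-/- label (log2 fold change -1.21, limma adjusted p = 3.3e-06). Ddx4, a germ cell helicase, was at 8.28 ± 0.132 and 7.77 ± 0.362 (adjusted p = 0.19), and Tdrkh rose from 1.13 ± 0.198 to 2.19 ± 0.224 (SD, n = 3 per group).

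Regulators of Myc were counted in the fit of the deposited values, with 29.3% higher and 31.3% lower among all tested genes. With libraries at equal sums the shares were 43.5% and 19.6%, from a fit other than that of these counts. Of 18 genes for turnover of the Myc protein, which include ligases that degrade it and factors that stabilize it, 11 were higher and 3 lower (median 0.31). Set, an inhibitor of the phosphatase PP2A, rose from 393 ± 18.2 to 517 ± 24.5 and Gsk3a, a kinase that marks Myc for degradation, from 59.4 ± 1.39 to 70.0 ± 2.26. Gsk3b, the paralog of Gsk3a and named after its values were seen, fell from 13.9 ± 0.869 to 10.3 ± 0.373 (limma adjusted p = 7.8e-04). Ppp2r5a, a PP2A subunit that targets Myc, went from 76.9 ± 4.56 to 60.1 ± 9.05, a call lost at equal library sums (adjusted p = 0.112), with no minimum mean, and without WT replicate 3 or Sdc1-/- replicate 3. Of the 12 listed regulators of Myc transcription and mRNA, Pvt1 was not analysed here, 9 were tested, 7 were higher and 1 was lower (median 0.27). Hnrnpk, which binds the Myc promoter, rose from 1081 ± 24.6 to 1249 ± 40.7, Hnrnpd from 508 ± 45.3 to 618 ± 14.0 and Fubp1 from 88.2 ± 2.63 to 106 ± 2.05 (SD, n = 3 per group).

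Known Myc targets were listed by function, and differences between these lists were not tested. Background in the fit of the deposited values, which gave the counts below, was 29.3% higher and 31.3% lower. It was 43.5% and 19.6% in the fit with libraries at equal sums, whose counts can differ. Ribosome biogenesis genes were higher in 16 of 27 and lower in 5 (median 0.17). Ncl, the nucleolar protein nucleolin, rose from 769 ± 29.4 to 1066 ± 27.1, Npm1 from 2111 ± 103 to 2576 ± 159.8 and Nop58 from 455 ± 27.0 to 524 ± 24.8, the last not called without Sdc1-/- replicate 2 (adjusted p = 0.0521). Cell cycle targets were higher in 13 of 15 tested and lower in 1 (median 0.26), with 9 higher without Sdc1-/- replicate 2. Cdk4 rose from 656 ± 43.3 to 783 ± 31.3, Pcna, the replication clamp, from 391 ± 23.4 to 437 ± 11.0, and Cks2 from 289.9 ± 21.5 to 341 ± 26.5 (SD, n = 3 per group). The call of Pcna was lost in 4 and that of Cks2 in 3 of the 6 runs that left out a library, and both with no minimum mean (adjusted p up to 0.0664 and 0.0839). Metabolic targets were higher in 9 of 23 and lower in 6 (median 0.053), shares near the background. Ldha, lactate dehydrogenase, fell from 2197 ± 9.16 to 1718 ± 38.9 (log2 fold change -0.35, but -0.0996 and not called with quantile normalization, adjusted p = 0.0638). Hspe1 rose from 652 ± 22.3 to 789.8 ± 19.0, and Nme1 was at 630.0 ± 14.8 and 585 ± 28.9 without being called (limma adjusted p = 0.062).

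Against 31.3% lower and 29.3% higher among all tested genes stand the genes that Myc is known to hold down. The shares at equal library sums, 19.6% and 43.5%, come from another fit than the counts here. In the fit of the deposited values these genes were lower in 6 of 8 tested and higher in 1 (median -0.50). Cdkn1a, the Cdk inhibitor p21, fell from 67.3 ± 1.69 to 48.0 ± 1.14 and Ndrg1 from 45.4 ± 0.635 to 31.4 ± 1.11, while Ndrg2 rose from 24.1 ± 1.29 to 37.6 ± 1.81 (SD, n = 3 per group). Cdkn2b, the inhibitor p15 and named after its values were seen, had the largest difference, with a log2 fold change of -1.69. Some of these, such as Cebpa, are also genes of maturing granulocytes, whose markers fell in the same libraries.

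**Figure D4:**
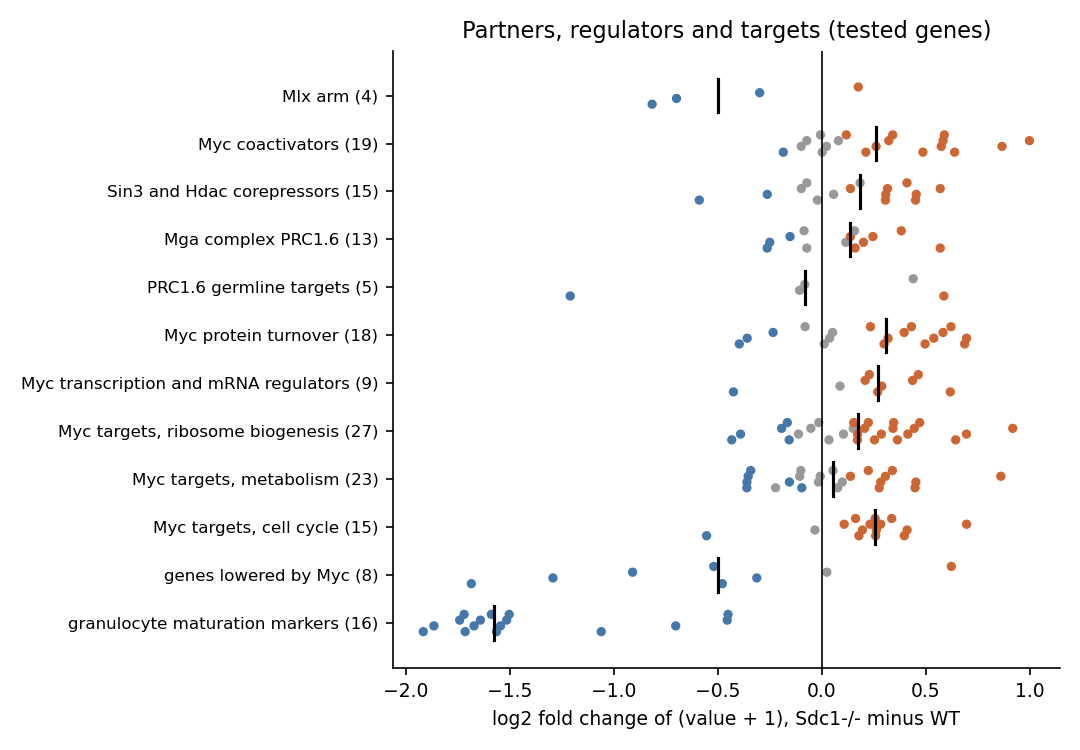
Log2 fold change of (value + 1), libraries labelled Sdc1-/- minus WT, of every tested gene in each list, with the number tested in parentheses. Each point is a gene, orange called higher, blue called lower and grey not called, and black bars are list medians. Cell cycle targets lie mostly to the right (13 of 15 called higher), genes lowered by Myc mostly to the left, and all 16 granulocyte markers lie left of 0, with a median of -1.58.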

How the data were processed

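RNA-seq libraries (TruSeq stranded mRNA, 150 ng of RNA, single reads of 75 bases) of 3 bcCML samples labelled WT and 3 labelled Sdc1-/- were compared, grouped by their titles. The authors ran kallisto and sleuth 0.30.0 with mm10, per the labels, and deposited a signal per gene and library, TPM that had been rescaled between libraries. The kallisto version and the transcriptome are not given in the sources used here. A second table, with the p-values, q-values and effect sizes of the authors' own comparison, was not used. Of 36083 identifiers, 35454 matched a GENCODE M21 symbol.

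The minimum mean for testing was 1. Genes at or above it were fitted with limma 3.58.1 in R 4.3.3 on log2(value + 1), with a group term alone, eBayes with a variance trend, and Benjamini-Hochberg adjustment over all tested genes at 0.05. The fit was tested on simulated data. Tables and figures were made with Python 3.11.15, pandas 2.3.3 and matplotlib 3.10.9. Alternatives changed the pseudocount, the minimum mean, the scaling and the variance trend, added a replicate block or left out a library, and 2 fits that removed a trend with transcript length and GC content were chosen after seeing the data. Named are all members, the 3 most abundant genes of each list, the 2 most abundant of each marker list (some given only within their list), the sex genes, Sdc1 and the 3 profiles nearest to Myc and to Mxd1. Xist was not analysed here, and 1 lymphoid marker is not reported here. The members and lists were chosen with earlier results of these data known.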

Additional observations from a re-analysis of the deposited data

How the results depend on the processing

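Mycn, Myc and all 4 Mxd genes kept their direction and call under every alternative, the log2 fold change of Mycn between 1.00 and 1.17, of Mxd1 between -0.96 and -0.71 and of Myc between 0.16 and 0.33. Where another setting changed a result, the cause was not tested. With every library at a sum of 1000000, 2380 instead of 3810 genes were lower, Max was at 0.11 and Mnt at 0.22 (called), and the lower genes numbered 0 among coactivators and 0 in PRC1.6, 1 in turnover and 2 in ribosome biogenesis, while Rbbp4 (0.049), Tfdp1 (0.062), Ddx4 (0.050), Nme1 (0.042) and Cd79b (0.024) changed sign. Quantile normalization turned Max (0.023), Tfdp1 (0.0067) and Nme1 (0.022). With the length and GC trend removed, Max was at 0.016, Mnt at -0.011, Mga at -0.040, Tfdp1 at 0.013, Nme1 at 0.012 and Gata2 at -0.033, 0 genes of the Mlx arm were higher and 2 coactivators lower. Germ cell genes that were higher numbered 2 without a minimum mean, 0 with a minimum of 5, 2 at a sum of 1000000 and 2 with the trend removed, and regulators of Myc mRNA that were lower numbered 2 without a minimum mean. Without Mga the log2 ratio of Myc genes to antagonists differed by 0.67. With each library left out in turn, Max ran from -0.072 to 0.024, turning without WT replicate 3, and germ cell genes that were higher from 1 to 2. In the same runs Gata2 (-0.0067 to 0.0936) and Cd79b (-0.1403 to 0.0023) changed sign without WT replicate 2.

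Replicate numbers were shared between the groups. The deviations of same-numbered libraries from their group means correlated at 0.15, -0.0083 and 0.018, and those of other pairs at -0.16 to 0.14. With so few libraries these correlations cannot decide whether the numbers pair the libraries, which the labels do not state. With a replicate block, 3653 genes were higher and 3971 lower, coactivators that were lower numbered 2 and germ cell genes that were higher 2, Actl6a, Rbbp4, Cbx3, Nme1 and Trac became called, and all 7 called members stayed called.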

Other observations

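Mycn and Sdc1 lie on the same chromosome. In GENCODE M21 on GRCm38, Sdc1 starts at position 8771323 of chromosome 12, and the nearer end of Mycn lies 4.16 Mb further on. Within 5 Mb of Sdc1 on either side, 35 other genes were tested, Mycn among them, and 10 were higher with the Sdc1-/- label and 10 lower, 57.1% against 60.7% of all tested genes. By size of the log2 fold change, Mycn was number 2 of these 35 and Matn3 (-1.37), a cartilage matrix gene named after its values were seen, was the first. Whether the engineered Sdc1 locus bears on the level of Mycn was not tested.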
